A study of Mus musculus with 4 samples.

Results

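Wnt ligands, their receptors and their antagonists were followed in 59 genes of mouse cortex, out of 23240 gene rows in the count table. The genes were taken by symbol: every Wnt, Fzd, Sfrp, Dkk and Rspo gene followed by a digit, together with Lef1, Tcf7, Tcf7l1, Tcf7l2, Axin1, Axin2, Lrp5, Lrp6, Lgr4, Lgr5, Lgr6, Porcn, Dvl1, Dvl2, Dvl3, Wif1, Ror1 and Ror2. RNA-seq libraries came from sorted cells of the cortex at embryonic day 15.5, with 2 neuron libraries and 2 libraries of neural progenitor cells (NPCs). All cells came from embryos that carried both reporters, bred from heterozygous Nestin-GFP and homozygous DCX-mRFP parents. Neurons were the cells with both colours, so they still held green fluorescence, and NPCs were the cells with green alone. The 2 libraries of a group are labelled as duplicates, with nothing on litters or separate sorts. All p-values therefore rest on the spread within such pairs, pooled in large part over all genes, and that spread may be only technical.

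Wnt proteins are secreted ligands that carry a lipid and bind Frizzled receptors together with a co-receptor. In the canonical branch, Dishevelled then holds back the complex of Axin, Apc and Gsk3 kinases that destroys beta-catenin, and beta-catenin activates genes bound by TCF/LEF transcription factors. R-spondins bind Lgr receptors and slow the removal of Frizzleds from the cell surface, while Sfrp, Dkk and Wif proteins act outside the cell against the signal. In the developing cortex the pathway is known for its roles in progenitor division, in patterning from the cortical hem and in neuronal differentiation and axon growth.

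Library totals lay between 52611828 and 55615142 counts, so depth was close to equal in both groups. Levels are CPM, each count taken as a share of its library's total on the usual scale, after TMM scaling, which corrects for differences in library composition. Changes are log2 ratios of neurons over NPCs ± standard error from edgeR's quasi-likelihood test, with n = 2 libraries per group. Adjusted p-values are Benjamini-Hochberg values over all 15292 genes tested, with a threshold of 0.05. Dcx, the gene behind the red reporter, was at 1358 and 1441 CPM in neurons, against 468 and 493 CPM in NPCs. Nes was at 33.1 and 36.4 CPM in neurons, against 102.7 and 97.8 CPM in NPCs. Both reporters were used in the sort, but the green one was carried by both groups, so only the red one separated them. The 2 genes are given as a check of the labels only. The NPC sort also held transcripts of cells other than radial glia. Markers of intermediate progenitors summed to 558 to 574 CPM in neurons and 2805 to 2815 CPM in NPCs, and endothelial markers to 9.86 to 10.2 CPM in neurons and 288 to 295 CPM in NPCs.

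Of the 59 genes, 40 had enough counts to be tested and 19 did not. Of all genes tested 72.6% passed in either direction. Of the 40 Wnt genes, 8 were higher in neurons, where 35.8% of all genes tested were higher, and 24 were lower in neurons, where 36.9% of all genes tested were lower. Counting only changes of 2-fold or more, 4 were higher and 19 lower, against 11.5% and 18.5% of all genes tested. The median log2 change was -0.80 over the 40 genes and -0.02 over all genes tested. Scaling by library size alone, without TMM factors, moved the median of all genes to -0.23 and gave 3840 genes higher and 7610 lower in neurons, in place of 5467 and 5641. Ror1 and Sfrp5 are counted in the 24 and in the 19. Both passed the count filter through the NPC libraries alone, so their direction was set by the filter. In bulk libraries, fewer cells of a type and less RNA per cell cannot be told apart.

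**Figure D1:**
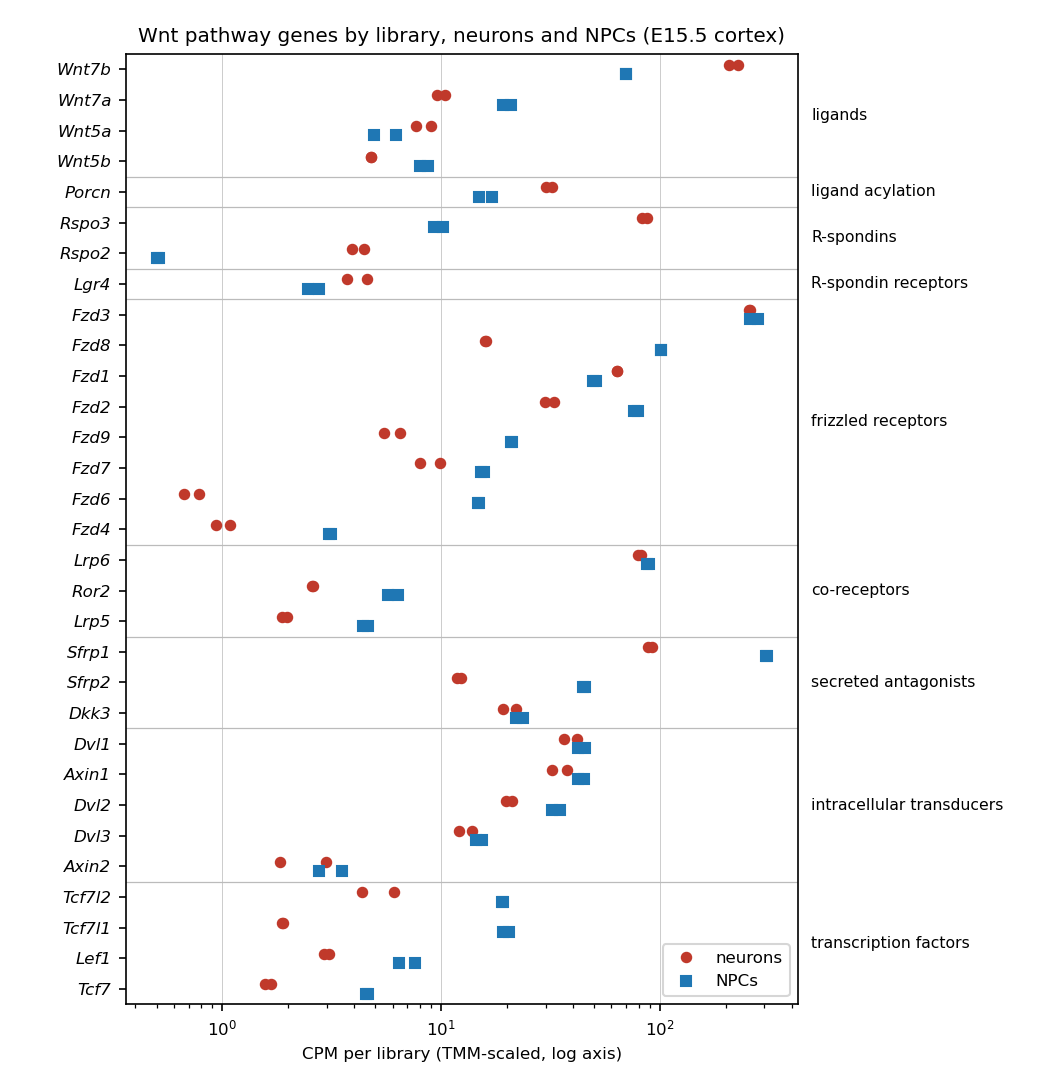
CPM in each library (log axis) for the 31 genes at or above a mean of 2 CPM, ordered by role, with circles for the 2 neuron libraries and squares for the 2 NPC libraries. Wnt7b, Porcn, Rspo3, Rspo2 and Lgr4 lie to the right in neurons, and Fzd8, Fzd6, Sfrp1, Sfrp2 and the 4 TCF/LEF genes lie to the right in NPCs.

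The ligand genes moved in both directions, and Wnt7b, the most expressed of them, rose in neurons. Wnt7b, known to promote dendrite growth in hippocampal neurons and the growth of blood vessels into the brain, was at 206 and 228 CPM in neurons, against 70.2 and 70.0 CPM in NPCs. Both neuron libraries lay well above both NPC libraries, with a log2 change of 1.63 ± 0.06 (adjusted p = 2.8e-13 by edgeR). Its closest relative Wnt7a, a ligand known from cortical progenitors, was at 10.4 and 9.59 CPM in neurons, against 19.2 and 20.8 CPM in NPCs. Wnt7a thus fell as its paralog rose, with a log2 change of -1.003 ± 0.09 (edgeR adjusted p = 4.7e-08). Exons of Wnt7b and of the antisense gene AU022754 overlap by up to 198 bases in the GENCODE annotation, and the use of strand in counting is not known, so Wnt7b may include a few antisense reads.

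A second pair of paralogs also split. Wnt5a, the main ligand of non-canonical signalling and an axon guidance cue, was at 8.93 and 7.63 CPM in neurons, against 6.19 and 4.92 CPM in NPCs. The neuron libraries were both higher by a margin close to the spread within each group, a log2 change of 0.57 ± 0.14 (edgeR adjusted p = 0.0013). With library size alone the Wnt5a change was 0.37 (adjusted p = 0.023). Wnt5b, its close relative, was at 4.76 and 4.76 CPM in neurons, against 7.97 and 8.70 CPM in NPCs, a log2 change of -0.81 ± 0.12 (adjusted p = 1.6e-05 by edgeR). The groups did not overlap for either gene, which is a weak criterion with n = 2 libraries per group.

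The remaining tested ligands were rare. Wnt3, a canonical ligand, was at 0.671 and 0.833 CPM in neurons, against 0.304 and 0.442 CPM in NPCs. Those levels rest on 76 reads over both neuron libraries and 43 over both NPC libraries, and the log2 change was 1.04 ± 0.37 (edgeR adjusted p = 0.020). The Wnt3 call was lost without NPC replicate 1 (adjusted p = 0.16), without neuron replicate 2 (0.12), with library size alone (0.054) and with DESeq2 (0.098). Wnt2b and Wnt4 did not pass. Wnt2b, a ligand known from the cortical hem, was at 0.682 and 0.641 CPM in neurons and 0.664 and 0.757 CPM in NPCs, and Wnt4 was at 0.679 and 1.15 CPM in neurons and 0.625 and 0.703 CPM in NPCs. Of the other 12 Wnt genes, Wnt2, Wnt8a, Wnt8b, Wnt9b, Wnt10b and Wnt11 had 0 counts in every library, which allows a level of up to 0.0614 CPM per library (3 counts, counting error only). Wnt1, Wnt3a, Wnt6, Wnt9a, Wnt10a and Wnt16 had at most 12 counts in a library. Wnt3a and Wnt8b are classic genes of the cortical hem, and markers of the hem and choroid plexus summed to only 0.969 to 1.05 CPM in neurons and 1.41 to 1.49 CPM in NPCs.

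Divided by exon length, which allows levels of different genes to be compared, Wnt7b was the highest ligand in both groups. Wnt7b was at 44.7 and 49.5 CPM per kilobase in neurons, against 15.2 and 15.2 in NPCs. This was 86.5% and 88.1% of the summed ligand level in neurons, against 59.2% and 57.5% in NPCs. Wnt7a followed at 3.15 ± 0.18 CPM per kilobase in neurons and 6.31 ± 0.36 in NPCs (SD, n = 2 each), and Wnt5b came next in both groups, at 1.79 ± 0.0011 CPM per kilobase in neurons and 3.14 ± 0.19 in NPCs. The level of Wnt7b was thus 13.7 and 16.4 times that of Wnt7a in neurons, against 2.51 and 2.31 times in NPCs. Lengths came from a mouse annotation of a later genome build than the one named for these files. With the longest transcript in place of all exons, Wnt7b made up 89.4% and 90.7% in neurons and 65.6% and 63.9% in NPCs.

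Porcn encodes the enzyme that attaches the lipid which Wnt proteins need for secretion. It was at 32.1 and 30.1 CPM in neurons, against 17.1 and 14.9 CPM in NPCs. All neuron values lay above all NPC values, with a log2 change of 0.96 ± 0.08 (edgeR adjusted p = 2.4e-08).

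R-spondin genes showed the steepest rises among the 40 genes. Rspo3 was at 82.7 and 86.9 CPM in neurons, against 10.2 and 9.27 CPM in NPCs. Its levels were separated by a wide gap, a log2 change of 3.12 ± 0.07 (8.72-fold, edgeR adjusted p = 2.5e-15). Rspo2 was at 3.92 and 4.44 CPM in neurons, against 0.514 and 0.4996 CPM in NPCs, a log2 change of 3.02 ± 0.22 (8.13-fold, edgeR adjusted p = 2.5e-09). Rspo2 was thus far rarer but changed by a like factor, and the difference between these changes was not tested. Rspo1 and Rspo4 had at most 3 counts in any library. An antisense gene overlaps 404 bases of Rspo3 exons in the annotation and has no row of its own in the table. In the same libraries, 4 of 5 tested Cajal-Retzius markers were higher in neurons, where 35.8% of all genes tested were higher, and Ebf2 was lower. The markers summed to 161 to 165 CPM in neurons and 43.3 to 43.9 CPM in NPCs. Most of these sums was Reln, at 143 and 146 CPM in neurons and 37.4 and 37.7 CPM in NPCs. The part of Cajal-Retzius cells in the R-spondin result was not tested.

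Among the receptors of R-spondins, Lgr4 rose in neurons. It was at 3.70 and 4.56 CPM in neurons, against 2.45 and 2.77 CPM in NPCs, a log2 change of 0.66 ± 0.17 (edgeR adjusted p = 0.0023). Lgr5, a stem cell marker of the gut, was at 0.246 and 0.387 CPM in neurons and 0.270 and 0.184 CPM in NPCs, and the groups overlapped. Lgr6 had at most 6 counts in a library.

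**Figure D2:**
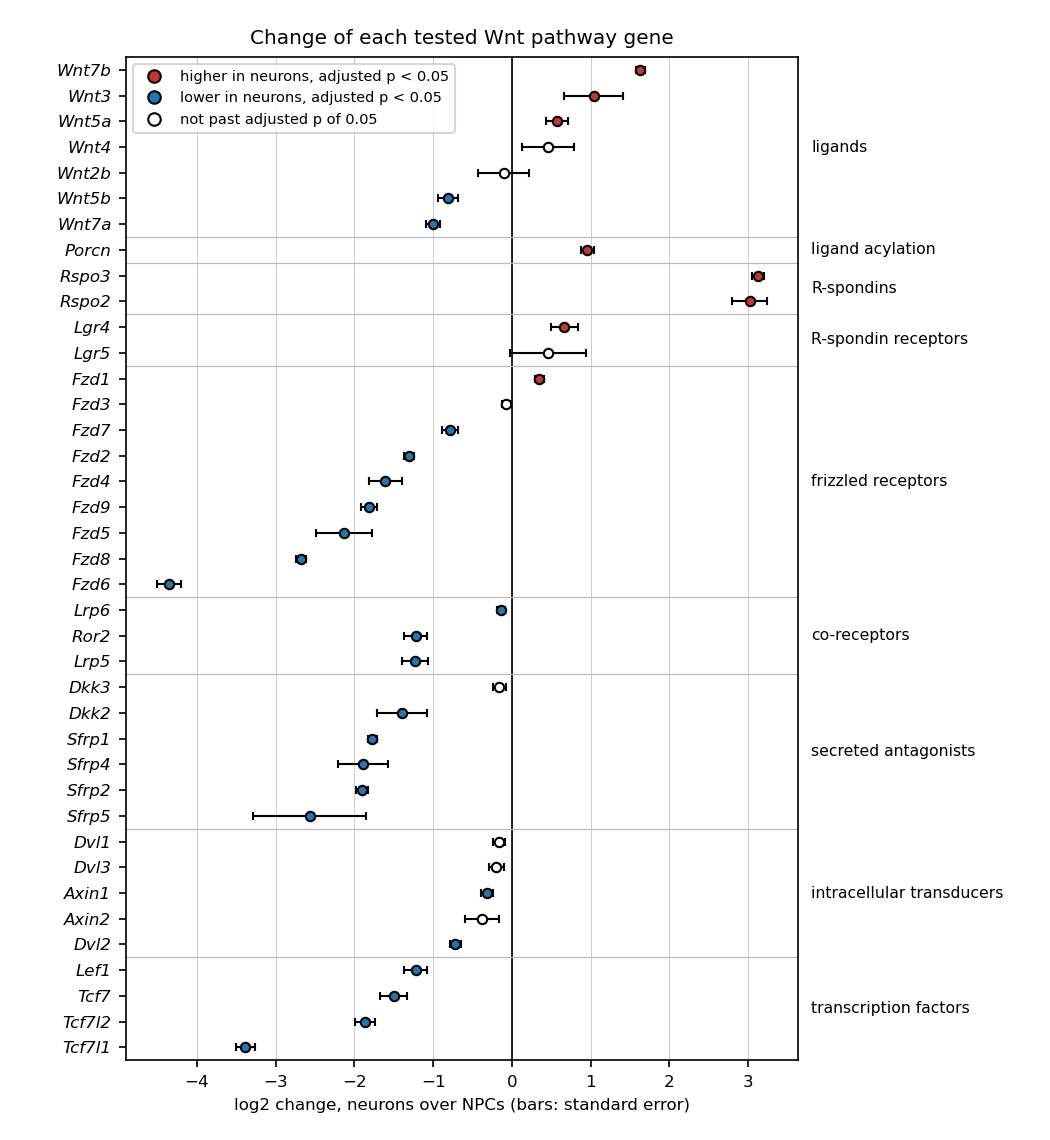
Log2 change of neurons over NPCs (points) with its standard error (bars) for 39 tested genes, ordered by role and coloured by call. Ror1 is left out because it had almost no counts in neurons. Sfrp5 is shown, but its direction was set by the count filter. Points range from 3.12 for Rspo3 to -4.36 for Fzd6, and all 4 TCF/LEF genes lie below -1.

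Of 9 tested Frizzled genes, which encode the Wnt receptors, 7 fell in neurons, Fzd1 rose and Fzd3 did not pass, where 36.9% of all genes tested were lower. Fzd6 fell furthest, at 0.778 and 0.664 CPM in neurons, against 14.7 and 14.9 CPM in NPCs. The neuron level was 20.6-fold lower, a log2 change of -4.36 ± 0.15 (edgeR adjusted p = 1.5e-13). Fzd3, which belongs to the same subfamily and is needed for the growth of major axon tracts, was at 255 and 258 CPM in neurons and 259 and 279 CPM in NPCs. Its log2 change of -0.07 ± 0.06 did not pass (edgeR adjusted p = 0.28), but with library size alone it passed at -0.28 as lower in neurons (adjusted p = 2.4e-04). Fzd3 was at 112.8 and 134 times the level of Fzd6 per exon length in neurons, against 6.06 and 6.47 times in NPCs.

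The related receptors Fzd8 and Fzd5 both fell. Fzd8, a receptor of cortical progenitors, was at 15.8 and 16.0 CPM in neurons, against 101.5 and 101.2 CPM in NPCs, a 6.38-fold lower level in neurons (edgeR adjusted p = 2.9e-15). Fzd5 was rare, at 0.328 and 0.232 CPM in neurons and 1.34 and 1.12 CPM in NPCs, with a log2 change of -2.13 ± 0.35 (edgeR adjusted p = 4.2e-05). Neither gene had overlapping groups, which is a weak criterion with n = 2 libraries per group. Fzd5 overlaps the unclassified transcript gene Gm38058 by 619 bases, where its exons hold 6915 bases in all, so its reads are partly uncertain.

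Within the Fzd1, Fzd2 and Fzd7 subfamily the directions differed. Fzd1 was at 63.6 and 63.7 CPM in neurons, against 49.4 and 50.7 CPM in NPCs, and rose with a log2 change of 0.35 ± 0.06 (edgeR adjusted p = 5.6e-05). With library size alone the change of Fzd1 was 0.14 (adjusted p = 0.041). Fzd2 fell, at 29.9 and 32.6 CPM in neurons, against 79.1 and 76.01 CPM in NPCs, with a log2 change of -1.31 ± 0.07 (edgeR adjusted p = 1.3e-11). Fzd7 also fell, at 8.03 and 9.86 CPM in neurons, against 15.2 and 15.6 CPM in NPCs, a log2 change of -0.79 ± 0.11 (edgeR adjusted p = 5.1e-06). Fzd1 was at 1.86 and 1.70 times the level of Fzd2 per exon length in neurons, against 0.545 and 0.582 times in NPCs, so their order differed between the groups.

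Fzd9, which is known from developing hippocampus, was at 6.51 and 5.45 CPM in neurons, against 21.0 and 20.9 CPM in NPCs, a log2 change of -1.81 ± 0.10 (edgeR adjusted p = 8.5e-11). Fzd4, the receptor of Norrin and of Wnt ligands in brain blood vessels, was at 0.935 and 1.08 CPM in neurons, against 3.08 and 3.13 CPM in NPCs, a log2 change of -1.61 ± 0.21 (edgeR adjusted p = 2.9e-06). Fzd10 had at most 12 counts in a library and was not tested. Endothelial markers moved with these falls, and 11 of 11 were lower in neurons, where 36.9% of all genes tested were lower. Their median log2 change was -4.79, and none of them was at 0 in either group. The part of endothelial cells in the Fzd4 and Fzd6 values was not tested.

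Per exon length, the Frizzled levels had a different order in each group. In neurons Fzd3 was highest at 20.1 ± 0.15 CPM per kilobase (SD, n = 2), followed by Fzd1 at 15.2 ± 0.014 and Fzd2 at 8.53 ± 0.53. Fzd8 at 2.66 ± 0.023 and Fzd9 at 2.61 ± 0.33 came next in neurons and did not differ beyond their spread. In NPCs Fzd2 at 21.2 ± 0.59 and Fzd3 at 21.1 ± 1.14 did not differ beyond their spread, and Fzd8 at 17.0 ± 0.038 and Fzd1 at 11.9 ± 0.22 followed. The summed Frizzled level was 51.0 and 51.9 CPM per kilobase in neurons, against 87.3 and 88.3 in NPCs. Fzd3 and Fzd1 together carried most of the sum in neurons, with 39.3% and 38.96% for Fzd3 and 29.7% and 29.2% for Fzd1, where in NPCs Fzd3 held 23.3% and 24.8% and Fzd1 13.5% and 13.7%.

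**Figure D3:**
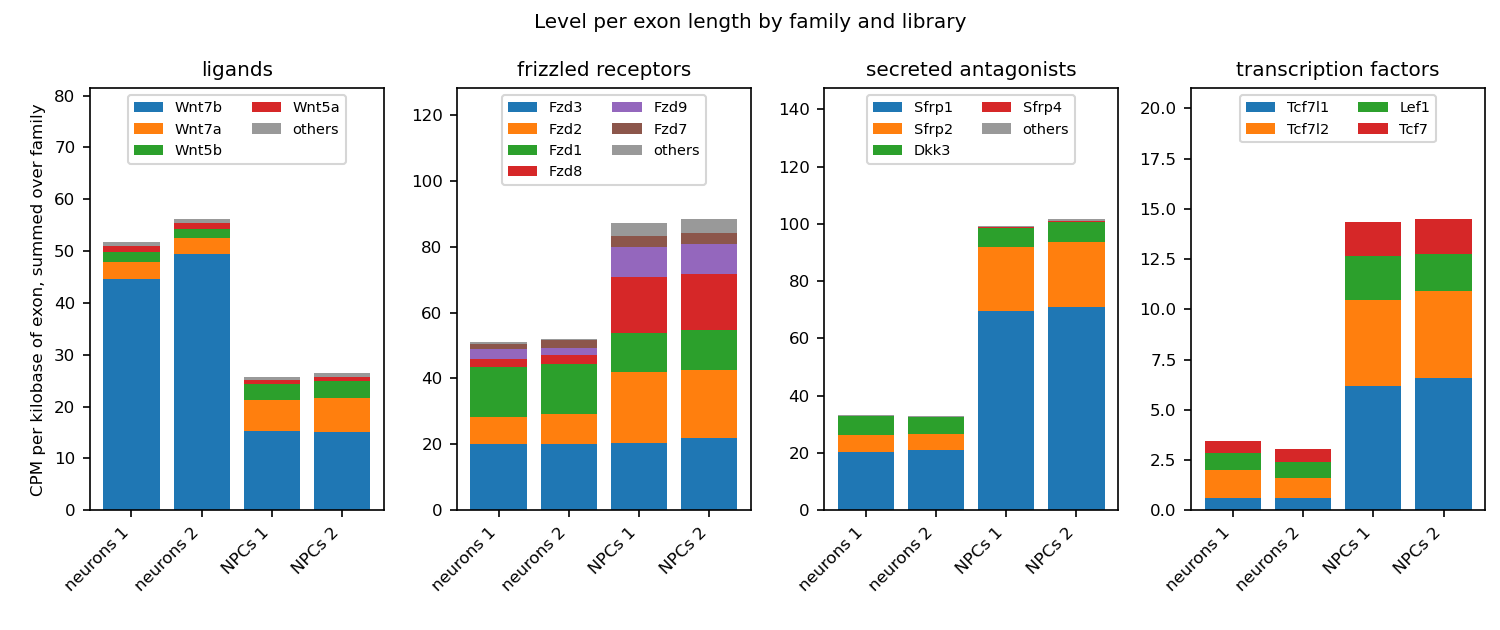
Level per exon length (CPM per kilobase) in each library, stacked by gene, for ligands, Frizzled receptors, secreted antagonists and TCF/LEF transcription factors, with the neuron libraries on the left of each panel. The ligand sum is higher in neurons (51.7 and 56.2, against 25.7 and 26.4 in NPCs). Wnt7b makes up 86.5% and 88.1% of this sum in neurons and 59.2% and 57.5% in NPCs. Of the next ligands, Wnt7a and Wnt5b are lower in neurons and Wnt5a is higher. The sums of the other 3 families are higher in NPCs.

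Of the co-receptor genes, Lrp5, Lrp6 and Ror2 were lower in neurons by very different amounts, where 36.9% of all genes tested were lower. The remaining one, Ror1, entered the test through the NPC libraries alone, so its direction was set by the filter. Lrp5 and Lrp6 encode the co-receptors of the canonical branch. Lrp5 was at 1.88 and 1.97 CPM in neurons, against 4.39 and 4.65 CPM in NPCs, a log2 change of -1.23 ± 0.17 (edgeR adjusted p = 4.4e-06). Lrp6 was at 81.5 and 79.1 CPM in neurons, against 87.3 and 89.3 CPM in NPCs. The small fall of Lrp6, -0.14 ± 0.06 (edgeR adjusted p = 0.036), was -0.34 with library size alone and was lost without NPC replicate 1 (adjusted p = 0.13), without NPC replicate 2 (0.24) and without neuron replicate 2 (0.079). It was also lost with DESeq2 (0.084) and with no low-count filter (0.062).

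Ror1 and Ror2 encode tyrosine kinase receptors of Wnt5a. Ror2 was at 2.58 and 2.58 CPM in neurons, against 6.33 and 5.73 CPM in NPCs, a log2 change of -1.22 ± 0.15 (edgeR adjusted p = 1.3e-06). Ror1 had 0 whole reads in neurons and 29 in NPCs, where it was at 0.249 and 0.259 CPM. A count of 0 in a neuron library allows a level of up to 0.0614 CPM (3 counts, counting error only). No fold change is given for Ror1, which entered the test through the NPC libraries alone, though it is counted among the lower genes above. Ror2 was thus lower in neurons, where Wnt5a was higher.

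Of the secreted antagonists, Sfrp1, Sfrp2, Sfrp4 and Dkk2 fell in neurons and Dkk3 did not pass, where 36.9% of all genes tested were lower. Sfrp5 was lower as well, but it entered the test through the NPC libraries alone, so its direction was set by the filter. Sfrp1, which encodes a decoy that resembles the ligand-binding part of Frizzleds and is made by cortical progenitors, was at 88.3 and 91.5 CPM in neurons, against 305 and 310 CPM in NPCs. Sfrp1 was 3.42-fold lower in neurons (edgeR adjusted p = 3.5e-14). Sfrp2, known from the antihem at the lateral border of the cortex, was at 12.3 and 11.8 CPM in neurons, against 44.6 and 45.4 CPM in NPCs, 3.74-fold lower in neurons (edgeR adjusted p = 6.2e-13). Per exon length Sfrp1 was the highest antagonist in both groups, at 20.6 ± 0.52 CPM per kilobase in neurons and 70.3 ± 0.80 in NPCs (SD, n = 2 each), and held 60.8% and 63.8% of the antagonist sum in neurons and 70.2% and 69.7% in NPCs.

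Dkk3, a divergent member of the Dickkopf family, did not pass and was at 21.9 and 19.1 CPM in neurons and 22.0 and 23.8 CPM in NPCs, a log2 change of -0.16 ± 0.09 (edgeR adjusted p = 0.11). It passed as lower in neurons with library size alone (-0.37, adjusted p = 0.0010) and without neuron replicate 1 (-0.25, adjusted p = 0.0078). With the Sfrp genes lower, the share of Dkk3 in the antagonist sum was 19.6% and 17.3% in neurons, against 6.58% and 6.96% in NPCs. Dkk2 and Sfrp4 were rare and fell, with log2 changes of -1.40 ± 0.32 and -1.89 ± 0.32. Sfrp4 was at 0.481 and 0.498 CPM in neurons and at 1.39 and 2.22 CPM in NPCs, whose libraries differed widely. Sfrp5 rested on 4 reads in neurons and 29 in NPCs. No ratio is given for it, since its direction was set by the filter. Its call was lost with DESeq2 (adjusted p = 0.053). Dkk1, Dkk4 and Wif1, which encode inhibitors that bind the co-receptors or the ligands, had at most 6 counts in a library. Meningeal markers, which include fibroblast collagens, were lower in neurons for 7 of 8 genes, where 36.9% of all genes tested were lower. Of these, Col1a1, Slc6a13 and Aldh1a2 entered the test through the NPC libraries alone, so their direction was set by the filter. They summed to 3.45 to 3.95 CPM in neurons and 43.2 to 43.7 CPM in NPCs. None was at 0 in both libraries of a group, though Aldh1a2 was at 0 and 0.0194 CPM in neurons. The part of meningeal cells in the Sfrp and Dkk values was not tested.

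Of the 5 Dishevelled and Axin genes, which act inside the cell, Dvl2 and Axin1 fell and the other 3 did not pass. The count of falls was near the 36.9% of all genes tested that were lower. Dvl2, one of the Dishevelled genes, was at 19.8 and 21.0 CPM in neurons, against 32.2 and 34.8 CPM in NPCs, a log2 change of -0.72 ± 0.08 (edgeR adjusted p = 2.4e-07). Exons of Dvl2 and of Acadvl overlap by up to 254 bases in the annotation, so its reads are partly uncertain. Axin1, the scaffold of the destruction complex, was at 32.0 and 37.7 CPM in neurons, against 44.9 and 42.0 CPM in NPCs. Its log2 change of -0.32 ± 0.08 (edgeR adjusted p = 0.0016) was -0.19 without neuron replicate 1 and -0.52 with library size alone. Dvl1 was at 36.4 and 41.7 CPM in neurons and 42.0 and 45.5 CPM in NPCs (edgeR adjusted p = 0.059), and Dvl3 at 12.02 and 13.9 CPM in neurons and 14.3 and 15.3 CPM in NPCs (edgeR adjusted p = 0.079). Both passed as lower in neurons without neuron replicate 2, at adjusted p-values of 5.8e-04 for Dvl1 and 0.0087 for Dvl3, and with library size alone, and Dvl1 also passed with the replicate number as a block (adjusted p = 0.021).

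Axin2, a feedback inhibitor and the most used readout of canonical signalling, was at 1.83 and 2.96 CPM in neurons and 3.53 and 2.76 CPM in NPCs. The groups overlapped, and the log2 change of -0.38 ± 0.22 did not pass (edgeR adjusted p = 0.12). The value rested on single libraries. Without neuron replicate 2 it passed at -0.76 (adjusted p = 0.0019) and without NPC replicate 2 at -0.55 (adjusted p = 0.048). Without neuron replicate 1 it was -0.07 (adjusted p = 0.76) and without NPC replicate 1 it was -0.20 (adjusted p = 0.51), and with library size alone it passed at -0.59 (adjusted p = 0.022).

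All 4 TCF/LEF genes, which encode the transcription factors that beta-catenin joins, fell in neurons, where 36.9% of all genes tested were lower. Tcf7l1, which acts mainly as a repressor and keeps stem cells undifferentiated, was at 1.88 and 1.88 CPM in neurons, against 19.1 and 20.3 CPM in NPCs. The neuron level was 10.5-fold lower, a log2 change of -3.39 ± 0.12 (edgeR adjusted p = 1.8e-13). Tcf7l2, known from thalamic neurons and glia, was at 6.10 and 4.36 CPM in neurons, against 18.9 and 19.1 CPM in NPCs, a log2 change of -1.86 ± 0.13 (edgeR adjusted p = 7.4e-10). Lef1, which is needed for the hippocampus to form and is itself a target of the pathway, was at 3.07 and 2.92 CPM in neurons, against 7.58 and 6.41 CPM in NPCs, a log2 change of -1.22 ± 0.15 (edgeR adjusted p = 1.1e-06). Tcf7 was at 1.56 and 1.66 CPM in neurons, against 4.53 and 4.60 CPM in NPCs, a log2 change of -1.50 ± 0.17 (edgeR adjusted p = 6.2e-07). No TCF/LEF gene had overlapping groups, a weak criterion with 2 libraries per group, and its share over all genes is not given here. In the annotation, the longest overlap of a Lef1 exon with an antisense gene spans 1208 bases, where Lef1 exons hold 3506 bases in all, so its level and its share of the family are uncertain. Shorter antisense overlaps, of 224, 104 and 43 bases, were found for Sfrp2, Axin2 and Tcf7l1, and Fzd6 overlaps a non-coding RNA gene by 152 bases.

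The makeup of the TCF/LEF family changed with its level. The summed level was 3.46 and 3.06 CPM per kilobase in neurons, against 14.4 and 14.5 in NPCs. Tcf7l1 held 17.7% and 19.9% of the sum in neurons, against 43.2% and 45.5% in NPCs, where it was the highest member. Tcf7l2 was the highest in neurons, with 39.8% and 32.2%, against 29.7% and 29.7% in NPCs. Within a library, the level of Tcf7l2 was 2.25 and 1.62 times that of Tcf7l1 in neurons, against 0.688 and 0.654 times in NPCs. Lef1 and endothelial markers were both lower in neurons, Lef1 being known also from brain endothelium, and the part of endothelial cells in the Lef1 value was not tested.

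Because the TCF/LEF genes fell together and some of them are regulated by the pathway itself, the 250 bases before their annotated starts were searched for the core letters that TCF/LEF proteins bind. The letters were CTTTGAA or CTTTGAT, or else CTTTGTA or CTTTGTT, on either strand, and those with CTTTGT overlap the core of Sox factor sites. Start windows from RefSeq on build GRCm38.p6 were matched to 40 of the 59 genes. At least 1 motif was found in 6 of these 40 genes (15%), against 16.8% of all genes in the table of starts. The 6 were Dkk1, Fzd7, Lef1, Tcf7l2, Wnt5b and Wnt11. In Lef1 and Tcf7l2 the motif lay before the most downstream annotated start and not before the others. These 2 windows are shown 5′ to 3′ with the motif in capitals, beside the window of Tcf7l1, which fell furthest, and that of Axin2, the feedback target, in which none of these letters were found. The Lef1 window is chr3:131156044-131156293 (plus strand), the Tcf7l2 window chr19:55895071-55895320 (plus strand), the Tcf7l1 window chr6:72789046-72789295 (minus strand) and the Axin2 window chr11:108920099-108920348 (plus strand). A match is a description of the letters and does not show binding.
Lef1: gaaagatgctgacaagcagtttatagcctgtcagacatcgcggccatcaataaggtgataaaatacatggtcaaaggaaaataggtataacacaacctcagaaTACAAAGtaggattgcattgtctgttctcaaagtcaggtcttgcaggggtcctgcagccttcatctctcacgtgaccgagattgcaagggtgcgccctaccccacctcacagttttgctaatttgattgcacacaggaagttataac
Tcf7l2: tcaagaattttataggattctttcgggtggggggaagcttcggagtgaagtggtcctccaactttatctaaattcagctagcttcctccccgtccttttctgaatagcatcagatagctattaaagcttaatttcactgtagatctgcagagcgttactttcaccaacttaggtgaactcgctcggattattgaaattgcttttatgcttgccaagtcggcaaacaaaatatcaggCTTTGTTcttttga
Tcf7l1: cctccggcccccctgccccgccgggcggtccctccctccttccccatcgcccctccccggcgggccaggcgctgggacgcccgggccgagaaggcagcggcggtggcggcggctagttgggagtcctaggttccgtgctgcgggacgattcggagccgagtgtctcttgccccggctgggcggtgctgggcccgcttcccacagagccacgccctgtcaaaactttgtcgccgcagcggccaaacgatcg
Axin2: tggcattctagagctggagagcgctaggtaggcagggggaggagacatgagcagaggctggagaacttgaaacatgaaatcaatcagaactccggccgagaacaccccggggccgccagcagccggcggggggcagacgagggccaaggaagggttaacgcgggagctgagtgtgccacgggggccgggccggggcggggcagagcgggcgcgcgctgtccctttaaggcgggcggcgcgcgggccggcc

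Other genes of the pathway, were taken from 5 lists. Of 64 tested, 29 were higher in neurons and 26 lower, where 35.8% of all genes tested were higher and 36.9% lower. The median log2 change was 0.04. With library size alone, 20 were higher and 31 lower. Of 21 genes of the destruction complex and its regulators, 15 were higher in neurons and 3 lower, with a median of 0.38. Over all genes tested, 35.8% were higher and 36.9% lower. Dact2, counted among the 15, entered the test through the neuron libraries alone, so its direction was set by the filter. With library size alone the list had 11 higher and 5 lower, and without NPC replicate 2 it had 12 higher and 3 lower. Apc, the scaffold whose loss activates the pathway in tumours, was at 522 and 541 CPM in neurons, against 226 and 234 CPM in NPCs, a log2 change of 1.21 ± 0.05 (adjusted p = 3.4e-12 by edgeR). Its neuronal relative Apc2 was at 134 and 153 CPM in neurons, against 78.1 and 79.6 CPM in NPCs. Dact1, which binds Dishevelled, was 2.75-fold higher in neurons, and the kinase gene Csnk1a1 was 1.13-fold higher. Thus Apc rose in the same libraries in which Axin1 fell.

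Of 15 genes for beta-catenin and its nuclear partners, 8 were higher in neurons and 3 lower, with a median of 0.15, beside the same 35.8% and 36.9% of all genes tested. Ctnnb1, the beta-catenin gene, was at 728 and 707 CPM in neurons, against 1045 and 1055 CPM in NPCs, a 1.46-fold lower level in neurons (edgeR adjusted p = 8.9e-08). Tle4, a corepressor that binds TCF proteins and marks deep-layer cortical neurons, was at 126 and 128 CPM in neurons, against 45.1 and 46.2 CPM in NPCs, a log2 change of 1.47 ± 0.06 (edgeR adjusted p = 4.6e-13). Hipk2, a kinase that acts on TCF proteins, was 1.78-fold lower. Sox17, which can bind beta-catenin but is also an endothelial gene, was at 0.205 and 0.213 CPM in neurons, against 5.15 and 5.79 CPM in NPCs. With library size alone, the counts became 4 higher and 5 lower in this list, and without NPC replicate 1 the higher count was 5.

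At the cell surface most listed genes were lower in neurons. Of 12 tested genes of secretion and extracellular control, 9 were lower in neurons and 3 higher, with a median of -0.73. Trabd2b, counted among the 9 and listed as Gm12824, entered the test through the NPC libraries alone, so its direction was set by the filter. The glypican gene Gpc3 was 5.62-fold lower and Igfbp4 1.96-fold lower, whereas Draxin, a secreted guidance protein that can bind Wnt co-receptors and is listed in the table as 2610109H07Rik, was at 114 and 127 CPM in neurons, against 70.2 and 70.4 CPM in NPCs. Of 8 further co-receptors and regulators of receptor turnover, 7 were lower and none higher, with a median of -0.90. Over all genes tested, 36.9% were lower and 35.8% higher. Lrp4 was 4.97-fold and the planar polarity receptor gene Ptk7 1.80-fold lower, and the Wnt receptor gene Ryk, at 113 and 113 CPM in neurons and 121 and 127 CPM in NPCs, was 1.10-fold lower. Gpr124, a co-receptor for Wnt7 ligands on brain endothelium, was at 0.643 and 0.956 CPM in neurons, against 4.72 and 4.88 CPM in NPCs. Gpr124 thus fell in neurons where the Wnt7b ligand rose, in libraries in which endothelial markers were also lower, a part that was not tested.

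Known target genes did not move as a block. Of 12 tested, 7 were lower in neurons and 3 higher, where 36.9% of all genes tested were lower and 35.8% higher, and the median was -0.79. Ccnd1, which drives cells into division, was at 19.1 and 20.8 CPM in neurons, against 102 and 106 CPM in NPCs, and the cortical patterning gene Emx2 was at 15.2 and 14.8 CPM in neurons, against 39.7 and 41.7 CPM in NPCs. Id2, an inhibitor of bHLH factors, went the other way, at 1115 and 1129 CPM in neurons, against 216 and 214 CPM in NPCs. These genes also answer to other signals, and 5 of the 15 listed targets are on another of the lists.

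**Figure D4:**
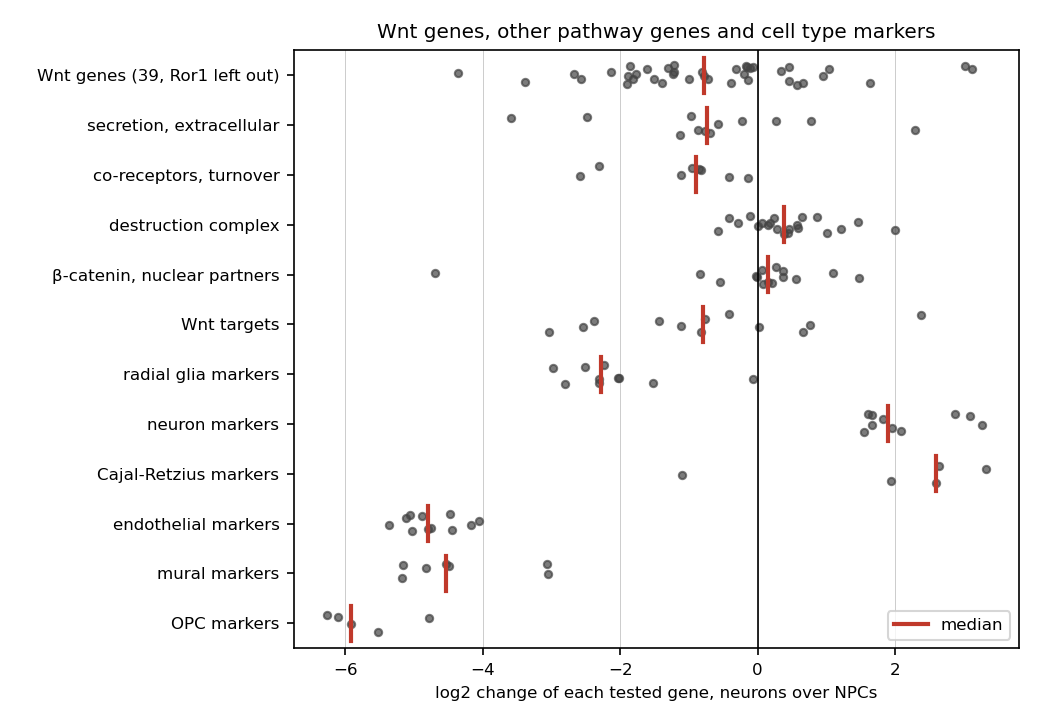
Log2 change of neurons over NPCs for each tested gene (points) and the median (red bars) for the Wnt genes, the 5 lists of other pathway genes and 6 lists of cell type markers. Destruction complex genes lie mostly above 0 (median 0.38), and endothelial, mural and oligodendrocyte precursor (OPC) markers lie below all but a few Wnt genes (medians of -4.79, -4.54 and -5.92).

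Markers of many cell types also differed between the groups, in both directions. Over all genes tested, 36.9% were lower in neurons and 35.8% higher. Radial glia markers were lower for 9 of 10 genes (sums of 631 to 654 CPM in neurons and 2989 to 3014 CPM in NPCs) and intermediate progenitor markers for 6 of 6. Mural cell markers were lower for 7 of 7 (10.9 to 11.1 CPM in neurons and 235 to 242 CPM in NPCs), oligodendrocyte precursor markers for 5 of 5 (2.85 to 3.57 CPM in neurons and 170 to 178 CPM in NPCs), microglia markers for 7 of 7 (20.2 to 20.7 CPM in neurons and 43.2 to 43.3 CPM in NPCs) and erythroid markers for 6 of 6 (250 to 258 CPM in neurons and 1545 to 1929 CPM in NPCs). Neuron markers were higher for 10 of 10 (12040 to 12278 CPM in neurons and 3174 to 3205 CPM in NPCs), and interneuron markers gave 3 higher and 3 lower of 8. The neuron list holds Dcx, whose reporter separated the groups, so Dcx adds nothing independent to the counts. The radial glia list holds Nes, whose reporter was also used in the sort but was carried by both groups. Sox10, an oligodendrocyte precursor marker, entered the test through the NPC libraries alone, so its direction was set by the filter. Of all these markers, Kl of the choroid plexus was at 0 in both neuron libraries, and none was at 0 in both NPC libraries. The part of each cell type in the Wnt gene levels was not tested.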

How the data were processed

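The authors deposited 1 table of 23240 gene rows with an estimated count per gene in each of 4 libraries, not scaled between libraries. The values are multiples of the share that 1 base takes of a read, so they need not be whole. Not given in the sources used here are the counting tool, its annotation and whether it used strand, so genes that overlap are uncertain. The submitters' processing notes name the tools CASAVA 1.9, TopHat 1.2.0 and SAMtools 0.1.18 and the build mm9, without saying what each did. Per the labels' protocols, total RNA went into an Illumina library kit.

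Estimated counts were rounded to whole numbers. The filter filterByExpr kept 15292 genes, and TMM factors were 0.928 and 0.933 for neurons and 1.08 and 1.07 for NPCs. Neurons were compared with NPCs in edgeR 4.0.16 under R 4.3.3 by the two-sided quasi-likelihood F test, without a block. A standard error is the size of the log2 change over the root of its F value. The test also draws on the spread of all genes (13.9 prior degrees of freedom). A standard error is thus not the spread of a gene's own duplicates alone. Duplicates of a group differed beyond sampling noise (chi-square per gene of 14.1 for neurons and 4.56 for NPCs) and were both kept. Exon lengths are unions of exons in GENCODE M21 on GRCm38, found for all 59 genes, and serve only to compare levels between genes. The fit was tested on simulated data.

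The Wnt genes and all lists were chosen with earlier results of these data known. Every Wnt gene could be named, with values per library for those at or above a mean of 2 CPM; values of rarer genes were added afterwards. Of each list of other pathway genes, the 3 with the smallest p and the 1 with the highest mean could be named. Dact2 and Trabd2b are named as well, since each passed the filter through a single group. Alternatives were other scalings, DESeq2 1.42.0, other filters, leaving out each library, a replicate block and, chosen after seeing the data, counts divided by 2.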

Additional observations from a re-analysis of the deposited data

How the results depend on the processing

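Across 11 alternatives, 430 values of the 40 tested Wnt genes were computed, and 0 changed sign. Ror1 and Sfrp5, whose direction was set by the filter, are included in all these counts. Of the 32 genes called, 29 kept their call in every alternative in which they were tested, and Lrp6, Wnt3 and Sfrp5 lost it in at least 1. Of the 8 not called, Axin2, Dkk3, Dvl1, Dvl3 and Fzd3 passed in at least 1, as lower in neurons. Leaving out 1 library, where the lone library of that group is assumed to vary like the other group, gave 7 to 8 Wnt genes higher and 23 to 26 lower in neurons, and 23 to 29 higher and 24 to 29 lower among the other pathway genes. Library size alone gave 7 higher and 29 lower Wnt genes. DESeq2 called 7 higher and 22 lower, the filter of 1 CPM 7 and 22, and counts divided by 2 gave 8 and 22. With the replicate number as a block, 8 Wnt genes were higher and 25 lower, and Dvl1 was the gene gained (log2 change -0.16, adjusted p = 0.021). The labels give no reason to pair libraries by number, and the deviations of same-numbered libraries had a correlation of 0.019 across genes. The 19 Wnt genes below the count filter had at most 12.01 counts in any library, 6 of them 0 in all, so differences in them could not be measured here.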
